A study of Drosophila melanogaster with 8 samples.

Results

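The genes followed here, 7 of the 16727 symbols listed for each library, build the visual chromophore or bring the major opsin to maturity in the fly eye: ninaA, ninaG, pinta, Pdh, ninaB, ninaD and santa-maria. They were chosen by symbol, and all 7 were found and passed the filter on low counts. Fly photoreceptors detect light with opsins that carry a chromophore made from dietary carotenoids. Carotenoids are taken up by scavenger receptors (ninaD in the gut, santa-maria in neurons and glia), cleaved by the oxygenase ninaB, and worked on in the retina by a retinoid-binding protein (pinta) and a retinol dehydrogenase (Pdh) of the pigment cells and by the oxidoreductase ninaG. The major opsin Rh1, encoded by ninaE, needs both this chromophore and the chaperone ninaA, a membrane-bound cyclophilin, to leave the endoplasmic reticulum.

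The study examined Top3β, a topoisomerase that acts on DNA and RNA, and its part in gene silencing. RNA-seq was run on whole heads of adult flies, 4 libraries from Top3b26, a P-element remobilized allele of Top3β, and 4 from the control strain w1118, the background in which the allele was made, which carries a deletion in the white gene. All flies were 1 to 2 weeks old, were raised at 25 °C with 12 h of light and 12 h of dark on corn syrup and soy food, and each library came from pooled heads. The methods describe 3 independent preparations of RNA, whereas 4 libraries per genotype are used here, and which library belongs to which preparation or culture is not given. The p-values therefore measure the spread between these libraries, some of which may be technical. RNA of the targeted gene was not lower under the Top3b26 label. Top3beta had 91.6, 79.9, 44.4 and 42.3 CPM (reads scaled to a library's total on genes) in Top3b26 replicates 1 to 4, against 23.8 to 40.6 CPM in the 4 libraries labelled w1118. Whether the allele leaves a transcript was not tested. The samples are therefore called the libraries labelled Top3b26 and w1118, and each direction below rests on those labels.

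The libraries held 4816757 to 6685891 reads on genes under the Top3b26 label and 3301976 to 7591510 under the w1118 label, so that 3 reads correspond to 0.395 to 0.909 CPM. The count tables carry a column header for replicates 1 and 2 of each genotype but none for replicates 3 and 4, and the libraries also fell apart by these sets. The 2 libraries labelled Top3b26 among replicates 1 and 2 (called the first set) stood apart in eye genes. In them, ninaE had 464 and 488 CPM, against 11203 and 14045 CPM in replicates 3 and 4 of the same genotype and 14717 to 23652 CPM in the 4 libraries labelled w1118. The summed level of 12 photoreceptor markers was 3093 to 3315 CPM in those 2 libraries, 17139 to 20333 CPM in the other 2 labelled Top3b26, and 23777 to 31181 CPM in the 4 labelled w1118. Each comparison is therefore given over all 8 libraries and within each set. In whole heads, fewer cells of a type and less RNA per cell cannot be told apart. Neuronal markers that a head should hold (elav, nSyb, brp, Syt1 and para) were present and summed to 6954 to 9488 CPM in the libraries labelled Top3b26 and 6517 to 7545 CPM in those labelled w1118.

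In levels per kilobase of exon, the 7 genes spanned more than 2 orders of magnitude. Pdh was the most abundant, at 1248 ± 640 CPM per kb (SD, n = 4) in the libraries labelled Top3b26 and 1564 ± 464 CPM per kb (SD, n = 4) in those labelled w1118. The opsin gene ninaE, for comparison, stood at 4125 ± 4477 CPM per kb (SD, n = 4) in the libraries labelled Top3b26 and 11693 ± 2573 CPM per kb (SD, n = 4) in those labelled w1118. In the libraries labelled Top3b26, ninaB followed at 61.9 ± 18.0 CPM per kb, then ninaA at 46.1 ± 33.9, santa-maria at 21.8 ± 0.523, pinta at 15.6 ± 4.14, ninaD at 9.54 ± 8.11 and ninaG at 5.45 ± 4.09 CPM per kb (SD, n = 4 each). In the libraries labelled w1118 the order was ninaA at 142 ± 80.0, ninaB at 43.6 ± 7.95, pinta at 21.6 ± 5.08, santa-maria at 19.0 ± 1.41, ninaG at 14.1 ± 3.65 and ninaD at 5.20 ± 4.52 CPM per kb (SD, n = 4 each). In the libraries labelled Top3b26 the neighbours in this order from ninaB down differed by less than the larger of their SDs, except santa-maria and pinta. In those labelled w1118 this held for pinta and santa-maria alone. Over all 8 libraries, 4 of the 7 genes had a negative log2 fold change and 3 a positive one. None passed the thresholds set for edgeR (quasi-likelihood test, an adjusted p up to 0.05 with a change of 1.5-fold or more), where 0.914% of the 9633 genes tested were called. The smallest unadjusted p-values among the members in edgeR were 0.0241 for ninaA and 0.0251 for ninaG. DESeq2 also called 0 members, where it called 60 of the 9633 genes higher and 172 lower.

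**Figure D1:**
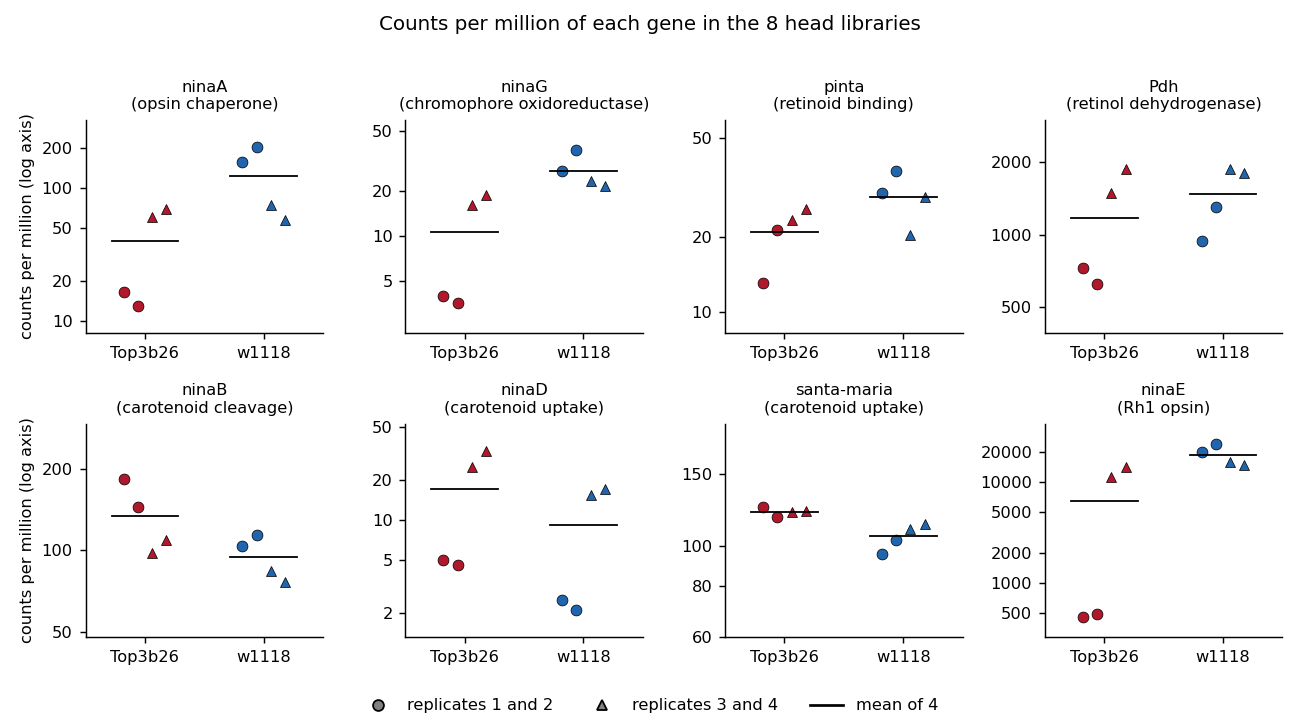
CPM (log axis) of the 7 genes and of the Rh1 opsin gene ninaE in each library, labelled Top3b26 on the left and w1118 on the right of each panel. Circles are replicates 1 and 2, triangles replicates 3 and 4 and bars the mean of 4; ninaA, ninaG and ninaE are lowest in replicates 1 and 2 labelled Top3b26, while ninaD separates by set of replicates in both genotypes.

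The opsin chaperone ninaA (chromosome 2L, 877302 to 878270, plus strand, dm6) had 16.7, 13.0, 61.0 and 69.9 CPM in Top3b26 replicates 1 to 4, against 158, 206, 75.1 and 58.0 CPM in w1118 replicates 1 to 4. All 4 libraries labelled Top3b26 lay below the mean of those labelled w1118, and the groups overlapped through replicates 3 and 4. The mean was 40.2 ± 29.5 CPM (SD, n = 4) in the libraries labelled Top3b26 and 124 ± 69.6 CPM (SD, n = 4) in those labelled w1118, which is -1.66 as a log2 fold change (standard error 0.617, adjusted p = 0.314 in edgeR). Exact permutation of log2(CPM + 1), two-sided, gave p = 0.0857 over the 70 splits, where 0.0286 is the smallest possible. In replicates 1 and 2 alone ninaA was 13.5-fold lower (-3.76 on the log2 scale, standard error 0.181, adjusted p = 3.77e-13 in edgeR). Within replicates 3 and 4 its log2 fold change was -0.12 (standard error 0.132, 95% interval -0.41 to 0.17, adjusted p = 0.653 in edgeR).

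Every base of the ninaA exons (871 of 871) is also covered by exons of CG15824 on the opposite strand. The sources used here do not say whether strand was kept in the libraries or used in counting. Reads listed as ambiguous were kept apart from the genes (0.559% to 0.956% of reads), yet ninaA and CG15824 each held reads. How far the reads of either gene stem from the other was not tested. CG15824 moved with ninaA, with 16.0, 11.4, 40.3 and 49.4 CPM in Top3b26 replicates 1 to 4, against 109, 133, 57.5 and 42.3 CPM in w1118 replicates 1 to 4. For each ninaA read there were 0.957, 0.874, 0.660 and 0.706 CG15824 reads in those labelled Top3b26 and 0.693, 0.648, 0.765 and 0.730 in those labelled w1118. The 2 highest ratios belonged to the 2 libraries with the fewest ninaA reads, 93 and 87, and the groups overlapped (two-sided exact permutation p = 0.314). With the reads of both genes summed, the log2 fold change was -1.62 (adjusted p = 0.3 in edgeR), an alternative added after the data were seen.

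**Figure D2:**
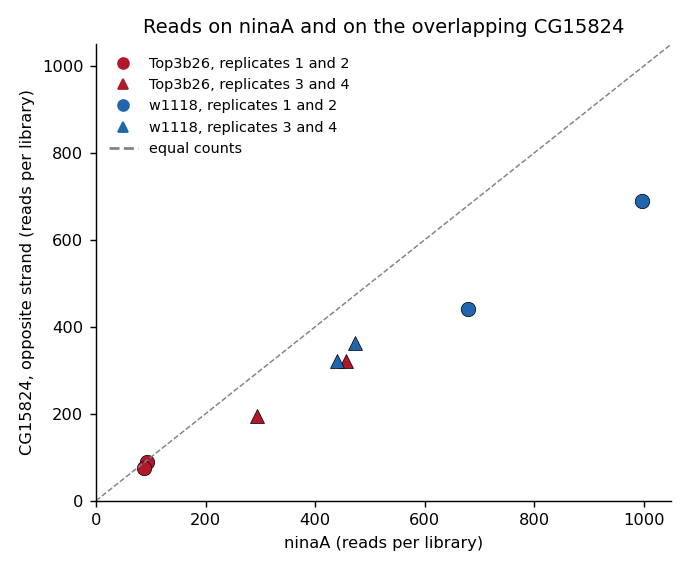
Reads on ninaA (horizontal axis) and on CG15824, which covers it on the opposite strand (vertical axis), in each of the 8 libraries; circles are replicates 1 and 2, triangles replicates 3 and 4, red is the Top3b26 and blue the w1118 label, and the dashed line marks equal counts. All 8 libraries lie below the line, with 0.648 to 0.957 CG15824 reads for each ninaA read.

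The client of ninaA had the larger fall in the first set. There ninaE was 50.7-fold lower in the libraries labelled Top3b26 (-5.66 on the log2 scale, standard error 0.152, adjusted p = 2.51e-17 in edgeR), and within replicates 3 and 4 its log2 fold change was -0.38 (adjusted p = 0.135). The ratio of the pair within a library needs no scaling. There were 3.59, 2.67, 0.545 and 0.498 ninaA reads for each 100 ninaE reads in Top3b26 replicates 1 to 4, against 0.787, 0.869, 0.473 and 0.394 in w1118 replicates 1 to 4. In both genotypes replicates 1 and 2 had the higher ratios, and the libraries labelled Top3b26 exceeded their w1118 counterparts by 1.90 on the log2 scale in replicates 1 and 2 and by 0.27 in replicates 3 and 4. Over all 8 libraries the difference was 1.09 on the log2 scale, a 2.13-fold higher ratio. With the sets pooled the groups overlapped (two-sided exact permutation p = 0.286), while within each set both libraries labelled Top3b26 were above both labelled w1118.

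The oxidoreductase ninaG (3R, 11419376 to 11421693, minus strand, dm6), which takes part in making the hydroxylated chromophore of flies, had fewer reads than ninaA in every library. It had 3.95, 3.59, 16.0 and 18.7 CPM in Top3b26 replicates 1 to 4, against 27.2, 37.3, 23.2 and 21.5 CPM in w1118 replicates 1 to 4. The lowest libraries rested on 22 and 24 reads, with exact Poisson 95% intervals of 2.48 to 5.98 and 2.30 to 5.34 CPM that cover counting error only. The highest of the libraries labelled Top3b26 lay below the lowest labelled w1118, which held for 2.58% of all genes tested (two-sided exact permutation p = 0.0286, the smallest that 4 against 4 allow). The log2 fold change over 8 libraries was -1.44 (standard error 0.537, adjusted p = 0.314 in edgeR). With the set of replicates as a term it was -1.59 (adjusted p = 0.0377 in edgeR) and was called, where 4.18% of genes were called lower. In the first set ninaG was 9.29-fold lower (-3.22 on the log2 scale, standard error 0.267, adjusted p = 4.98e-09 in edgeR), and within replicates 3 and 4 it came to -0.46 (standard error 0.149, adjusted p = 0.0735 in edgeR).

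The genes of the retinal pigment cells moved less. The retinoid-binding protein gene pinta (3R, 22423316 to 22424929, minus strand, dm6) had 13.1, 21.4, 23.5 and 25.9 CPM in Top3b26 replicates 1 to 4, against 29.9, 36.9, 20.3 and 28.8 CPM in w1118 replicates 1 to 4. Its groups overlapped, with a mean of 21.0 ± 5.56 CPM (SD, n = 4) in the libraries labelled Top3b26 and 29.0 ± 6.81 CPM (SD, n = 4) in those labelled w1118 (log2 fold change -0.57, standard error 0.256, adjusted p = 0.411 in edgeR). In replicates 1 and 2 pinta was 2.1-fold lower (-1.07 on the log2 scale, standard error 0.223, adjusted p = 0.00176 in edgeR), and within replicates 3 and 4 the log2 fold change was -0.11 (95% interval -0.49 to 0.28, adjusted p = 0.771).

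The retinol dehydrogenase gene Pdh (3L, 16353233 to 16354297, minus strand, dm6) had 726, 624, 1487 and 1879 CPM in Top3b26 replicates 1 to 4, against 941, 1302, 1869 and 1799.8 CPM in w1118 replicates 1 to 4. Replicates 3 and 4 were higher than replicates 1 and 2 in both genotypes, and the groups overlapped. Its log2 fold change was -0.44 over 8 libraries (standard error 0.425, adjusted p = 0.72 in edgeR), -0.88 within replicates 1 and 2 (standard error 0.145, adjusted p = 0.000143, 1.84-fold lower) and -0.23 within replicates 3 and 4 (95% interval -0.50 to 0.04, adjusted p = 0.292). Of the Pdh exons, 43.3% are covered by asRNA:CR45894 or Tcs3 on the opposite strand, so its reads may include theirs. There were 55.4, 29.2, 63.4 and 72.5 Pdh reads for each pinta read in Top3b26 replicates 1 to 4, against 31.4, 35.2, 91.9 and 62.4 in w1118 replicates 1 to 4, a log2 difference of 0.06 (two-sided exact permutation p = 0.914). By set it was 0.27 for replicates 1 and 2 and -0.16 for replicates 3 and 4.

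**Figure D3:**
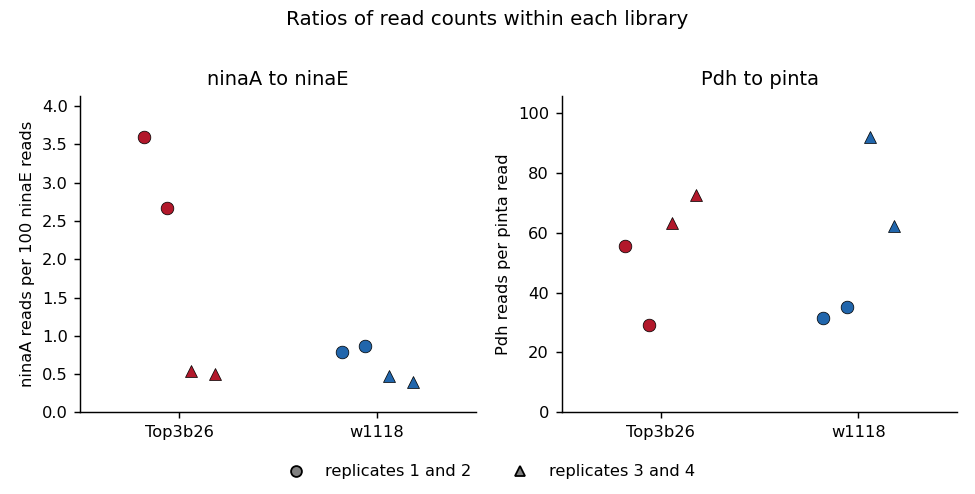
Ratios of read counts within each library, ninaA reads for each 100 ninaE reads (left) and Pdh reads for each pinta read (right), with libraries labelled Top3b26 left of those labelled w1118; circles are replicates 1 and 2 and triangles replicates 3 and 4. The ninaA to ninaE ratio is 2.67 and 3.59 in replicates 1 and 2 labelled Top3b26 and below 1 elsewhere, while the Pdh to pinta ratio overlaps between the genotypes.

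The genes that act outside the retina had positive log2 fold changes over 8 libraries, but none was called there. That of santa-maria was 0.07, where the median of all genes was -0.01. The carotenoid oxygenase gene ninaB (3R, 13700565 to 13703164, plus strand, dm6) had 184, 145, 97.8 and 109 CPM in Top3b26 replicates 1 to 4, against 103, 114, 83.9 and 76.3 CPM in w1118 replicates 1 to 4. Each library labelled Top3b26 lay above the mean of those labelled w1118. The ranges overlapped over all 8 libraries but not within either set. The mean was 134 ± 38.9 CPM (SD, n = 4) in the libraries labelled Top3b26 and 94.3 ± 17.2 CPM (SD, n = 4) in those labelled w1118, which is 0.37 as a log2 fold change (standard error 0.168, adjusted p = 0.411 in edgeR). Its log2 fold change in replicates 1 and 2 was 0.45 (adjusted p = 0.0389), past the adjusted p but under the fold threshold, and within replicates 3 and 4 it was 0.27 (adjusted p = 0.136 in edgeR). With the set of replicates as a term it was 0.36 (adjusted p = 0.0473 in edgeR), again under the fold threshold and not called.

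The gut scavenger receptor gene ninaD (2L, 18081628 to 18083608, plus strand, dm6) had 5.03, 4.64, 25.3 and 33.3 CPM in Top3b26 replicates 1 to 4, against 2.53, 2.12, 15.4 and 17.1 CPM in w1118 replicates 1 to 4. Replicates 3 and 4 stood far above replicates 1 and 2 in both genotypes, and within each set both libraries labelled Top3b26 were above both labelled w1118. The low libraries labelled w1118 held 16 and 7 reads, with exact Poisson 95% intervals of 1.45 to 4.11 and 0.851 to 4.37 CPM. Over 8 libraries without regard to set, the log2 fold change of ninaD was 0.70 (standard error 0.852, adjusted p = 0.79 in edgeR). With the replicate number as a block it was 0.77 (standard error 0.154, adjusted p = 0.0298 in edgeR) and ninaD was called, 1 of the 7 members where 0.914% of all genes were called higher. It was likewise 0.77 with the set of replicates as a term (adjusted p = 0.0124, where 1.41% of genes were called higher), 0.87 within replicates 1 and 2 (standard error 0.456, adjusted p = 0.227) and 0.75 within replicates 3 and 4 (standard error 0.166, adjusted p = 0.0111, 1.68-fold higher).

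Of 4 markers of the gut, where ninaD acts, 2 were tested, the amylase genes Amy-p and Amy-d. Of the others, epsilonTry was at 0 in every library, and the summed level of the 4 was 13.9 to 30.7 CPM in the libraries labelled Top3b26 and 45.4 to 52.4 CPM in those labelled w1118. Amy-p was called lower over 8 libraries (log2 fold change -1.77, adjusted p = 0.0277 in edgeR) and Amy-d was not (-0.99, adjusted p = 0.261). Muscle markers, 4 in all, were higher in replicates 3 and 4, as ninaD was. They summed to 2976 to 3132 CPM in Top3b26 replicates 1 and 2 and 1968 to 2303 CPM in w1118 replicates 1 and 2. In replicates 3 and 4 they summed to 8431 to 8915 CPM under the Top3b26 label and 6196 to 6616 CPM under the w1118 label. The 4 hemocyte markers summed to 157 to 230 CPM under the Top3b26 label and 105 to 259 CPM under the w1118 label. The part of the gut, muscle and hemocyte markers in the ninaD values was not tested.

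The scavenger receptor gene santa-maria (2L, 7445355 to 7451244, minus strand, dm6) was the steadiest of the 7. It had 125, 118, 122 and 122 CPM in Top3b26 replicates 1 to 4, against 95.8, 104, 110 and 114 CPM in w1118 replicates 1 to 4. The lowest of the libraries labelled Top3b26 lay above the highest labelled w1118, as for 7.64% of all genes tested (two-sided exact permutation p = 0.0286). This gap depended on the scaling: on CPM scaled by edgeR's TMM factors the difference was 0.08 in log2(CPM + 1) with p = 0.486 in the exact permutation test. The log2 fold change was 0.07 over 8 libraries (standard error 0.123, 95% interval -0.21 to 0.34, adjusted p = 0.869 in edgeR), 0.14 within replicates 1 and 2 and 0.01 within replicates 3 and 4. With the library total as the only scaling, the median log2 fold change of all genes was 0.12, against -0.01 with TMM.

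Within replicates 1 and 2, 4 of the 7 genes were called lower (ninaA, ninaG, pinta and Pdh) and 0 higher, where edgeR called 7.03% of 9686 genes lower and 3.50% higher. Within replicates 3 and 4, 1 was called higher (ninaD) and 0 lower, where 1.52% of 9656 genes were called higher and 5.95% lower. The calls within replicates 1 and 2 were thus made on libraries in which all 12 photoreceptor markers were called lower too, with a median log2 fold change of -3.78 against 0.00 over all genes. Within replicates 3 and 4, 5 of the 12 were called lower (chp, ninaC, inaD, Arr1 and Arr2) with a median of -0.48. The change of ninaA (-3.76) and ninaG (-3.22) in the first set lay among those of trp (-4.42), inaC (-3.96), inaD (-3.65) and norpA (-2.51), while pinta and Pdh lay nearer eys (-0.81) and rdgA (-1.29). The part of the photoreceptor markers in these values was not tested.

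**Figure D4:**
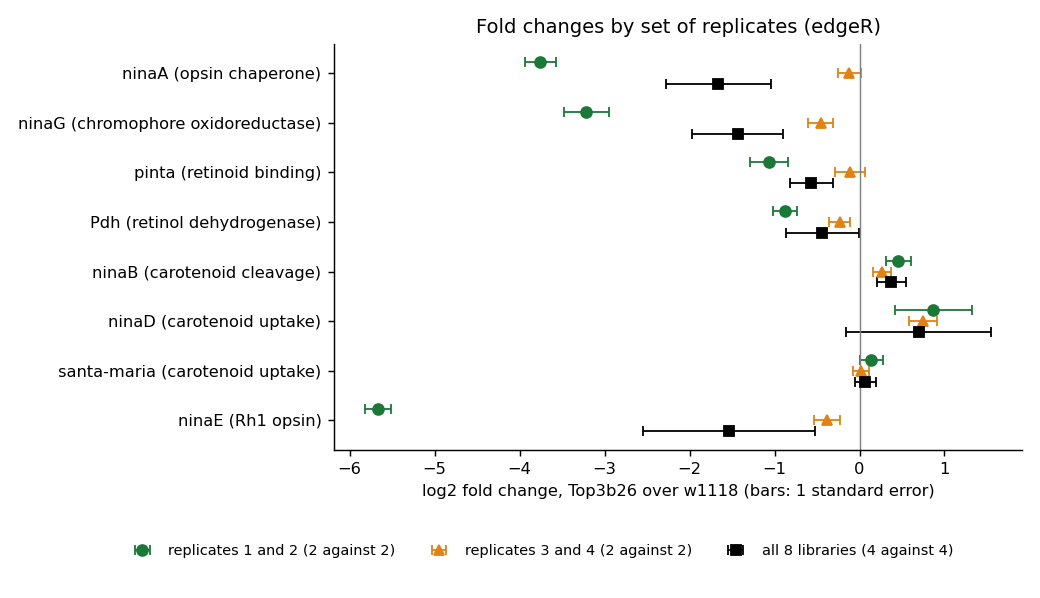
Log2 fold changes of the libraries labelled Top3b26 over those labelled w1118 from edgeR for the 7 genes and ninaE, within replicates 1 and 2 (circles), within replicates 3 and 4 (triangles) and over all 8 libraries (squares), with bars of 1 standard error. For ninaA, ninaG and ninaE the circles lie at -3.76, -3.22 and -5.66 and the triangles at -0.12, -0.46 and -0.38, while ninaB, ninaD and santa-maria stay at or above 0 in each fit.

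The difference between the sets was tested itself, as the interaction of genotype and set in edgeR. It was called for 2 of the 7 genes, where 7.31% of all genes passed. The log2 fold change of ninaA was 3.61 higher in replicates 3 and 4 than in replicates 1 and 2 (adjusted p = 1.21e-08), and that of ninaG 2.72 higher (adjusted p = 1.11e-05). For pinta (0.92, adjusted p = 0.0924) and Pdh (0.62, adjusted p = 0.0856) the difference did not pass, nor for ninaB (-0.22, adjusted p = 0.564), ninaD (-0.15, adjusted p = 0.896) and santa-maria (-0.15, adjusted p = 0.641).

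Within one genotype, replicates 3 and 4 were compared with replicates 1 and 2, a comparison added after the data were seen. In the libraries labelled Top3b26, 5 of the 7 genes were called higher in replicates 3 and 4, where 13.2% of 9709 genes were: ninaD by 2.79 on the log2 scale, ninaG by 2.38, ninaA by 2.33, Pdh by 1.5 and pinta by 0.68. In the libraries labelled w1118, 2 were called higher, where 12.2% of 9695 genes were: ninaD by 2.90 (adjusted p = 6.42e-06 in edgeR) and Pdh by 0.85 (adjusted p = 0.000367). In these, ninaA was called lower in replicates 3 and 4 (log2 fold change -1.31, adjusted p = 2.78e-05), where 6.73% of genes were. The sets therefore differed in ninaA among the libraries labelled w1118 as well, in the opposite direction. For ninaD the step between sets was 6.90-fold in the libraries labelled Top3b26 and 7.46-fold in those labelled w1118, where the genotypes differed by 1.68-fold within replicates 3 and 4.

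The opsins themselves were set beside their maturation genes. Over 8 libraries 0 of 7 were called. In the first set, 4 were called lower: ninaE, Rh3 (-2.31), Rh4 (-4.06) and Rh5 (-2.77), of which Rh3, Rh4 and Rh5 are opsins of the inner photoreceptors. Within replicates 3 and 4, Rh3 (-0.64) and Rh5 (-0.87) were called lower and Rh6 (1.10, adjusted p = 1.83e-05 in edgeR) higher. Rh6, an inner photoreceptor opsin, had 318, 278, 458 and 480 CPM in Top3b26 replicates 1 to 4, against 228, 248, 197 and 209 CPM in w1118 replicates 1 to 4, so that its groups did not overlap. Rh2 and Rh7, opsins with sites of expression outside the main retina, had log2 fold changes of 0.41 and 0.29 over 8 libraries, neither called. With the replicate block, 2 opsins were called lower, Rh3 (-1.47, adjusted p = 0.0371 in edgeR) and Rh5 (-1.80, adjusted p = 0.0304).

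Of 24 other genes of opsin folding and transport (calnexin, the endoplasmic reticulum membrane complex or EMC, Rab proteins and sugar-trimming enzymes), 21 were tested, with a median log2 fold change of -0.13 over 8 libraries against -0.01 for all genes. Only EMC2A, a subunit of the complex that inserts membrane proteins such as opsins (listed as CG17556), was called over 8 libraries. EMC2A had 11.3, 9.72, 6.64 and 5.83 CPM in Top3b26 replicates 1 to 4, against 17.4, 18.5, 14.0 and 14.4 CPM in w1118 replicates 1 to 4. Its groups did not overlap, and it was called lower over 8 libraries (log2 fold change -1.07, adjusted p = 0.0364 in edgeR), within replicates 1 and 2 (-0.92, adjusted p = 0.012) and within replicates 3 and 4 (-1.30, adjusted p = 0.000761). The call over 8 libraries was lost when upper quartile factors or the library total replaced TMM, and in 11 of the 12 fits that left out a library or a replicate number. In those 12 fits the log2 fold change of EMC2A was -1.20 to -0.95, with an adjusted p of 0.0359 without Top3b26 replicate 1 and up to 0.286 in the others. Cnx99A, the calnexin that Rh1 needs, was called lower within replicates 1 and 2 (-0.87, adjusted p = 5.22e-05) and had 0.42 within replicates 3 and 4 (adjusted p = 0.00842), under the fold threshold. EMC4 (listed as CG11137) was also called lower within replicates 1 and 2 (-0.62, adjusted p = 0.0173). The row of Xport-A (listed as Xport), a further chaperone of Rh1, and that of Fatp1 (listed as CG45083) were at 0 in every library, and Xport-B was below the filter. Whether reads of Xport-A and Fatp1 were counted elsewhere was not tested, so these rows do not show absence of their RNA.

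Of 8 other retinoid and carotenoid transport genes, 0 were called over 8 libraries. The pigment cell retinol dehydrogenase gene rdhB had 45.2, 42.2, 62.3 and 88.3 CPM in Top3b26 replicates 1 to 4, against 59.1, 83.9, 79.6 and 71.4 CPM in w1118 replicates 1 to 4. Like Pdh it was called lower within replicates 1 and 2 (-0.84 on the log2 scale, adjusted p = 0.00128 in edgeR) and not within replicates 3 and 4 (-0.10). Genes of the lipoprotein particles that carry lipids in the hemolymph, and of their assembly, were called lower within replicates 3 and 4: apolpp (listed as Rfabg, -1.47), Mtp (-1.01) and Apoltp (-0.67). Of these, apolpp was also called lower in the first set (-0.60). The 5 fat body markers, apolpp among them, summed to 5293 to 6421 CPM in Top3b26 replicates 3 and 4, against 21726 to 29252 CPM in w1118 replicates 3 and 4. The yolk protein gene Yp1 weighed heavily in this sum, with 1.99% of all reads on genes in w1118 replicate 4. The methods do not give the sex of the flies used for RNA-seq. Within replicates 3 and 4, 3 of the 5 markers were called lower (Lsp2, Yp1 and apolpp) and 1 higher (Fbp1), with a median log2 fold change of -1.47. In replicates 1 and 2 they summed to 4804 to 8254 CPM under the Top3b26 label and 5181 to 7117 CPM under the w1118 label, with 1 of 4 tested called lower and 1 higher. Their part in the values of the lipoprotein genes was not tested. The lipoprotein receptor genes LpR1 and LpR2 had 0.15 and 0.26 over 8 libraries.

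Relatives by protein family were tested in the same fits. Of 14 cyclophilin genes, 13 were tested and ninaA was the only one called in any of the fits over all 8 libraries, with the replicate block or within a set. Of 15 genes of the oxidoreductase family of ninaG (GMC oxidoreductases), 11 were tested within replicates 1 and 2, where ninaG was called lower and CG9512 higher (2.03, adjusted p = 4.36e-10 in edgeR), while in the other set CG9509 was called higher (1.21) and ninaG was not called. Of 14 class B scavenger receptor genes, 13 were tested. In the first set emp (0.79) and Snmp2 (0.62) were called higher and crq (-0.61) lower, while in the other set ninaD was called higher and CG2736 (-0.94), CG1887 (-0.82) and CG3829 (-0.66) lower. Of 24 CRAL-TRIO genes, the family of pinta, 18 were tested within replicates 1 and 2, with CG32407 (1.24) and CG10657 (0.80) called higher and pinta lower, while in the other set only CG5958 (-0.85) was called, lower. Of 10 short-chain dehydrogenase genes like Pdh, 8 were tested, and antdh was called higher with the replicate block (1.06, adjusted p = 0.035 in edgeR) and within both sets (1.21 and 0.94).

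Genes of eye pigment, listed as markers of the pigment cells, were set beside pinta and Pdh. How far these markers report pigment cells alone in whole heads was not tested. Of 9 listed, 8 were tested, and their summed level was 241 to 249 CPM in Top3b26 replicates 1 and 2, against 272 to 355 CPM in w1118 replicates 1 and 2. In replicates 3 and 4 it was 322 to 422 CPM under the Top3b26 label and 581 to 615 CPM under the w1118 label. In the first set st (-1.56), bw (-0.77) and Hn (-0.73), genes of eye pigment transport and synthesis, were called lower. Within replicates 3 and 4, where pinta and Pdh were not called, v (-1.23), Hn (-0.97), se (-0.77) and ry were. The white gene w, deleted in part in w1118, the strain background of Top3b26, was called higher over 8 libraries, with the replicate block and within both sets. It had 5.92, 4.94, 7.68 and 7.82 CPM in Top3b26 replicates 1 to 4, against 0.792, 1.21, 0.635 and 0.790 CPM in w1118 replicates 1 to 4 (2.85 on the log2 scale, adjusted p = 0.00395 in edgeR). The part of these markers in the values of pinta and Pdh was not tested.

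Neuronal markers, 5 in all, had a median log2 fold change of 0.05 over 8 libraries, and 0 were called within either set. Of 5 glial markers, repo (0.71) and alrm (1.77) were called higher within replicates 1 and 2, the set in which ninaB had 0.45. The summed level of the glial markers was 1598 to 2489 CPM in the libraries labelled Top3b26 and 1404 to 2094 CPM in those labelled w1118, and their part in the values of ninaB and santa-maria was not tested.

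**Figure D5:**
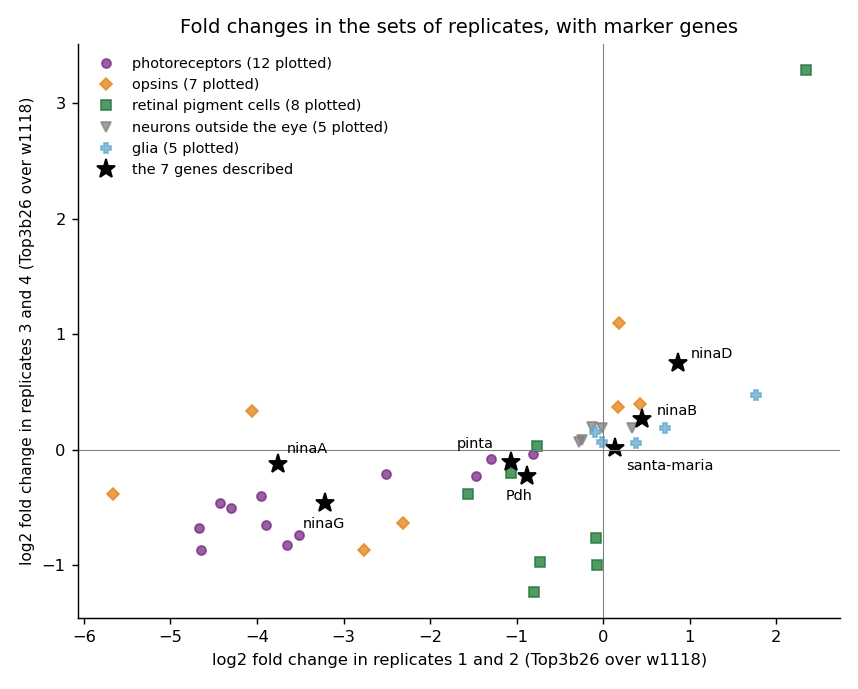
Log2 fold changes (Top3b26 over w1118) within replicates 1 and 2 (horizontal axis) and within replicates 3 and 4 (vertical axis) for the 7 genes (stars), opsins and markers of photoreceptors, pigment cells, neurons and glia. Stars for ninaA and ninaG lie at -3.76 and -3.22 on the horizontal axis among the photoreceptor markers. Those for ninaB and santa-maria lie at 0.45 and 0.14 on that axis, where the median of all genes was 0.00. The point at 2.34 and 3.29 is w.

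The genes whose log2(CPM + 1) was most like each of the 7 over the 8 libraries were taken from the other 9632 genes tested, with Pearson's r as the measure. These values are a description, as all points share the sets of replicates and the depth of each library. For ninaA they were CG15824 (r = 0.997), the gene that covers it, and Ipp, an inositol polyphosphate phosphatase (0.988). For ninaG they were gl, the photoreceptor transcription factor Glass (0.996), and the light-activated channel gene trpl (0.994). For pinta they were CG2617 (0.940) and lz, a Runx transcription factor of the developing eye (0.938), and for Pdh they were the glutamate dehydrogenase gene Gdh (0.981) and CR44841 (0.975). For the genes that act outside the retina they were KLHL18 (0.995) and the proton pump subunit gene Vha36-1 (0.984) for ninaB, the malic enzyme gene Men-b (0.995) and CG7860 (0.994) for ninaD, and CR44107 (0.979) and CG8012 (0.978) for santa-maria.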

How the data were processed

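The data were RNA-seq libraries of adult heads, 8 in all. The authors mapped reads to dm6 with TopHat (the submitters' notes name TopHat2 2.1.1 and SAMtools 1.8) and deposited 1 file per library with raw counts, in whole numbers, for each gene symbol. The counting program is not given in the sources used here. The header of w1118 replicate 2 names CPM, but its values are whole numbers summing to 3301976 and were used as counts. Rows naming no gene (65.5% to 74.8% of reads listed) were left out. Symbols were matched to the Ensembl annotation of dm6 (12512 by symbol, 3996 by an older symbol, 219 not).

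Counts were tested with edgeR 4.0.16 in R 4.3.3 (filterByExpr, TMM factors, glmQLFit, glmQLFTest, Benjamini-Hochberg over all genes tested). The standard error is the size of the log2 fold change divided by the root of the F statistic, and 95% intervals use the test's degrees of freedom. Alternatives were DESeq2 1.42.0, limma 3.58.1 (voom), other scalings, filters and thresholds, a replicate block, a term for the set of replicates, each set alone and libraries left out. Single values were tested by exact permutation on log2(CPM + 1) in Python 3.11.15 with scipy 1.17.1. Scripts were tested on simulated data. Genes named are the 7 members, ninaE, Top3beta, called genes of the lists (up to 4 by size, otherwise up to 3 by mean CPM) and the 2 genes nearest in pattern to each member; further markers, CG15824 and genes named with their family were chosen after their values were seen. The members and lists were chosen with earlier results of these data known.

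Labels number the replicates 1 to 4 in both genotypes. Deviations from the genotype means correlated across genes between same-numbered libraries (r = 0.586, 0.437, 0.512 and 0.647), and as strongly between differently numbered libraries of 1 set (0.527 to 0.622), so the number stands for the set at least. Poisson intervals cover counting error only, whereas the 95% intervals of edgeR's log2 fold changes include the spread between replicates.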

Additional observations from a re-analysis of the deposited data

Results flagged for a closer look

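The effect of genotype differed between the sets of replicates, in edgeR's interaction test, for 2 of the 7 genes, for ninaE and for CG15824, where 7.31% of all genes passed. The log2 fold change in replicates 3 and 4 minus that in replicates 1 and 2 was 3.61 for ninaA (adjusted p = 1.21e-08), 2.72 for ninaG (adjusted p = 1.11e-05), 5.25 for ninaE (adjusted p = 2.13e-11) and 3.02 for CG15824 (adjusted p = 3.14e-07). Both libraries labelled Top3b26 in replicates 1 and 2 lay below every other library in these 4 genes. Among the other opsins it was 4.37 for Rh4, 1.87 for Rh5, 1.64 for Rh3 and 0.89 for Rh6. Of the opsin folding and transport genes it was 1.26 for Cnx99A, 0.58 for Rab1, 0.55 for didum and -0.52 for Crc, and in the lipoprotein assembly gene Mtp -0.89. Of the protein family relatives it was 0.62 for crq, -0.64 for CG2852, -0.97 for CG32407 and -2.20 for CG9512. All 12 photoreceptor markers passed, with 3.97 for Arr1, 3.93 for trp, 3.76 for trpl, 3.75 for chp, 3.52 for inaC, 3.22 for Arr2, 2.79 for inaD, 2.74 for ninaC, 2.27 for norpA, 1.21 for rdgC, 1.18 for rdgA and 0.74 for eys. Of the markers of other tissues it was -0.95 for ry, -1.34 for alrm, -2.40 for Yp1, -5.62 for Lsp2 and 1.19 for Amy-p. In the groups of 4 libraries, Dixon's test set no single library apart for any of the 7 genes. That test cannot mark 2 libraries that are low together, as those of ninaA and ninaG in Top3b26 replicates 1 and 2.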

How the results depend on the processing

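None of the 7 genes was called over 8 libraries, and the sets of replicates decided most calls made otherwise. Within replicates 1 and 2 alone the log2 fold changes of ninaA (-3.76), ninaG (-3.22), pinta (-1.07) and Pdh (-0.88) passed the thresholds. A term for the set of replicates brought past them ninaG (-1.59) and ninaD (0.77), replicates 3 and 4 alone ninaD (0.75), and the replicate block ninaD (0.77). The block changed no other member's call. Members called higher were 1 with the block, 1 with the set term and 1 in replicates 3 and 4, and members called lower 1 with the set term and 4 in replicates 1 and 2.

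Over the whole table, genes called higher numbered 24, with 88 under the block, 136 with the set term, 339 and 147 within replicates 1 and 2 and replicates 3 and 4, and 60 with DESeq2. Genes called lower numbered 64, with 280, 403, 681 and 575 in the same 4 fits, 172 with DESeq2, 41 with the stricter filter and 97 at an adjusted p of at most 0.1. Of the other genes on the pathway and family lists, those called higher were 1 with the block, 3 with the set term, 6 in replicates 1 and 2 and 3 in replicates 3 and 4, against 0 over 8 libraries. Those called lower were 3, 4, 10 and 10 in the same fits and 3 with DESeq2, against 1 over 8 libraries and 0 with upper quartile factors or the library total.

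On log2(CPM + 1), the difference of ninaA came to -3.52 for replicates 1 and 2 and -0.014 for replicates 3 and 4, that of ninaG -2.79 and -0.35, and that of pinta -0.95 and 0.024, so that pinta changed sign. The difference of santa-maria was 0.075 with TMM-scaled CPM (exact permutation test, p = 0.486). The log2 ratio of Pdh to pinta turned to -0.16 in replicates 3 and 4 and to -0.20 without replicate 1, and the log2 fold change of santa-maria to -0.0030 without w1118 replicate 1. The cause of these shifts was not tested.

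Leaving out replicates, the log2 fold change ranged from -2.32 to -1.03 for ninaA, -1.99 to -0.97 for ninaG, -0.76 to -0.37 for pinta, -0.79 to -0.20 for Pdh, 0.23 to 0.49 for ninaB, 0.10 to 1.21 for ninaD and -0.0030 to 0.14 for santa-maria, with 0 members called in 12 fits. Genes called higher ranged from 2 to 15 and lower from 15 to 48, and other list genes called lower from 0 to 1. The log2 ratio of ninaA to ninaE ranged from 0.72 to 1.38 and that of Pdh to pinta from -0.20 to 0.25. The log2(CPM + 1) differences ranged from -2.45 to -1.06 for ninaA, -2.03 to -1.07 for ninaG, -0.68 to -0.24 for pinta, -0.59 to -0.21 for Pdh, 0.36 to 0.56 for ninaB, 0.77 to 0.85 for ninaD and 0.14 to 0.23 for santa-maria, where 3 against 3 cannot go below an exact p of 0.1. Depth limits ninaG and ninaD most, with 22 and 7 reads in their lowest libraries.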
